A study of Rattus norvegicus with 6 samples.

Results

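Cyclic AMP and cyclic GMP are small second messengers that carry signals from receptors at the cell surface into the cell. The genes described here encode the machinery that makes, degrades and reads them. They were matched by symbol: the phosphodiesterases (Pde followed by a number and a letter from a to d), the adenylyl cyclases (Adcy), the catalytic (Prkac) and regulatory (Prkar) subunits of protein kinase A, the cGMP-dependent protein kinases (Prkg), the guanylyl cyclases (Gucy1 and Gucy2) and the A-kinase anchoring proteins (Akap). This choice was made with earlier results of these data known. Of 20675 genes in the deposited table, 60 matched, namely 20 phosphodiesterases, 10 adenylyl cyclases, 2 catalytic and 4 regulatory subunits of protein kinase A, 1 cGMP-dependent kinase (Prkg2), 7 guanylyl cyclases and 16 anchoring proteins. No row of the table carried the symbol Prkg1, so that gene was not analysed here.

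The cells were primary cells from the disc of the rat temporomandibular (jaw) joint, a pad of fibrous tissue that lies between the joint's bones. In the GSK101 group they were given GSK101, which opens TRPV4, a cation channel that lets calcium in, for 24 h, and in the Ctrl group they were given DMSO, the solvent, for the same time. RNA sequencing of polyadenylated RNA gave 3 libraries per group. No genotype, strain, age, passage, dose or number of animals is given in the sources used here, and neither is whether the replicates came from separate animals or cultures. The p-values thus reflect how much these libraries vary, and part of that variation may be technical.

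As background, adenylyl cyclases make cAMP, mostly under the control of stimulatory and inhibitory G proteins, and guanylyl cyclases make cGMP in response to nitric oxide or peptide ligands. Phosphodiesterases hydrolyse one or both nucleotides, so that their mix of isoenzymes sets how long and where a signal lasts. Cyclic AMP acts largely by releasing the catalytic subunits of protein kinase A from its regulatory subunits, and anchoring proteins hold that kinase near its substrates. Calcium ions feed into the same system, because some cyclases and the PDE1 enzymes respond to calcium and calmodulin.

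The libraries held 43061102 to 45293829 counted reads with GSK101 and 43973072 to 45705238 in Ctrl. Values are RPKM, reads per kilobase of gene relative to each library's counted reads, as the authors deposited them. Fold changes are GSK101 over Ctrl on the log2(RPKM + 0.5) scale, which understates changes at low values, and a gene was called at a Benjamini-Hochberg adjusted p under 0.05 in limma over all 12801 genes for which 3 or more of the 6 libraries reached an RPKM of 0.5. Fibroblast markers were abundant, with Col3a1 at 3284 ± 331 RPKM with GSK101 and 3521 ± 227 RPKM in Ctrl, and of the 7 tested 3 were higher and 2 lower. Of the chondrocyte markers, Acan was well expressed (31.9 ± 0.821 RPKM with GSK101, 33.6 ± 3.88 RPKM in Ctrl) and Sox9 was detected (2.46 ± 0.207 RPKM with GSK101, 2.80 ± 0.158 RPKM in Ctrl), neither of them called, while Col2a1, the collagen of hyaline cartilage, averaged 0.0164 RPKM in both groups. Markers of smooth muscle summed to 5559 to 6078 RPKM with GSK101 and 9638 to 9943 RPKM in Ctrl, with 4 of 6 tested markers lower and 0 higher. Proliferation markers summed to 226 to 239 RPKM with GSK101 and 114 to 125 RPKM in Ctrl, with all 5 tested markers higher. These marker counts stand beside 20.1% of all tested genes higher and 11.9% lower. The part of these cell populations in the values below was not tested. Trpv4 itself had 40 to 46 reads with GSK101 and 36 to 48 reads in Ctrl (0.295 ± 0.0190 and 0.298 ± 0.0431 RPKM) and lay below the filter.

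Of the 60 genes, 42 passed the filter on low values. With GSK101, 14 of them were higher, 3 were lower and 25 did not pass the threshold. The 17 calls are 40.5% of the tested members, beside 31.9% of all tested genes (20.1% higher and 11.9% lower). The median log2 fold change was 0.05 over the 42 genes and 0.03 over all tested genes. The GSK101 libraries all lay above the Ctrl libraries for 19 members and all below them for 4, a separation seen for 47.3% of all tested genes. The size of the change was modest, 0.36 in absolute log2 units for the median called member and 0.35 for the median call of the whole table. By family, phosphodiesterases (5 of 12 tested) and anchoring proteins (7 of 14) supplied 12 of the 14 increases. Of these, Pde7b was tested only because GSK101 was above the filter. Both tested guanylyl cyclase subunits were lower (1 of them, Gucy1a3, was tested only because Ctrl was above the filter), and 1 of 8 adenylyl cyclases was called. The balance depended on the scaling between libraries: 16 members were higher and 3 lower after rescaling to TPM, and 10 were higher and 4 lower when scaled by median ratios, as also when quantile normalized. Leaving out GSK101 replicate 1, GSK101 replicate 2 or Ctrl replicate 2 left 9 higher and 1 lower in each case.

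**Figure D1:**
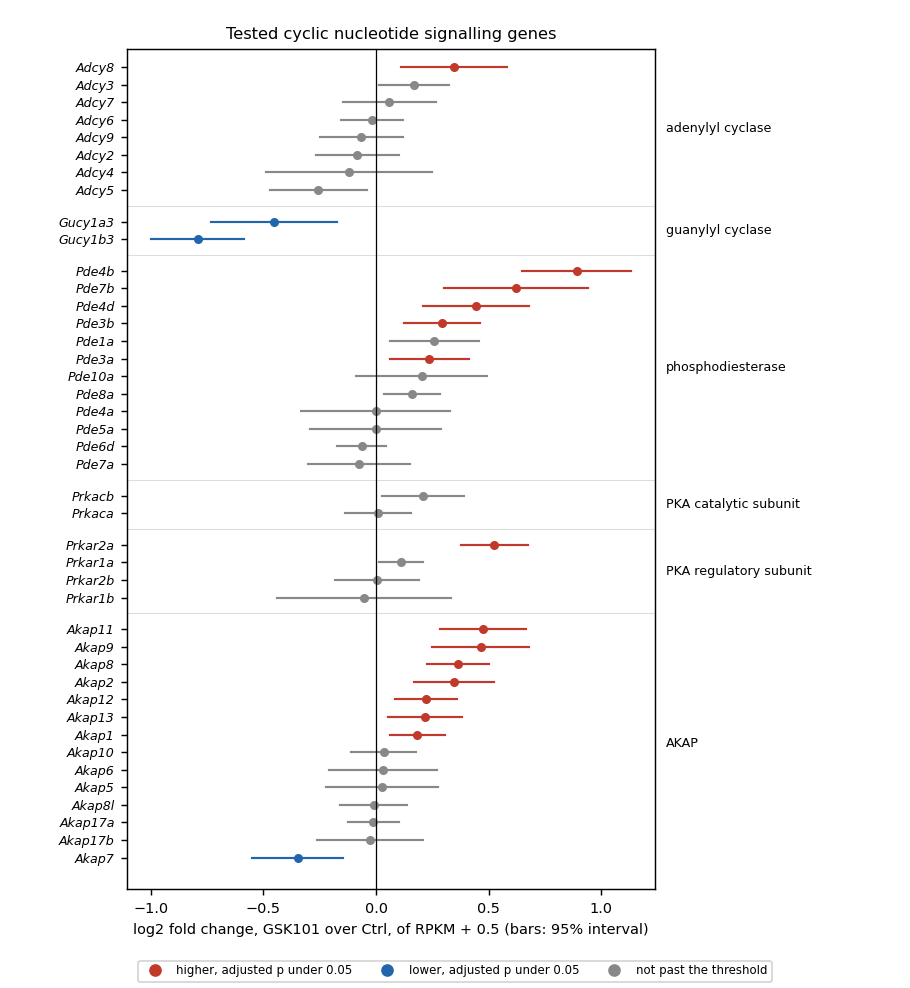
Log2 fold change of RPKM + 0.5, GSK101 over Ctrl, of the 42 tested genes, grouped by family. Points are limma estimates from 3 libraries per group and bars are 95% intervals; red marks higher, blue lower and grey no call. Pde4b lies furthest to the right at 0.89 and Gucy1b3 furthest to the left at -0.79.

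The adenylyl cyclases open the cAMP arm. As a family they differed by less than the spread between libraries. Their summed level was 33.2 ± 0.295 RPKM with GSK101 and 33.6 ± 2.02 RPKM in Ctrl (SD, n = 3 each), a ratio of 0.989. The 3 most abundant forms were Adcy2, at 22.8 ± 1.93% of the sum with GSK101 and 24.0 ± 1.64% in Ctrl, Adcy6 and Adcy3. Adcy2, a form stimulated by G protein beta-gamma subunits, averaged 7.57 ± 0.646 RPKM with GSK101 and 8.05 ± 0.618 RPKM in Ctrl (log2 fold change -0.08, adjusted p = 0.472). Adcy6, a form inhibited by calcium, averaged 7.33 ± 0.348 RPKM with GSK101 and 7.43 ± 0.251 RPKM in Ctrl, and the 95% interval of its log2 fold change ran from -0.15 to 0.12. For both genes the groups overlapped.

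Adcy8, a cyclase that calcium and calmodulin stimulate, was the one called member of the family. It measured 1.13, 1.14 and 0.972 RPKM with GSK101 and 0.792, 0.724 and 0.711 RPKM in Ctrl, on 192 to 237 and 144 to 166 reads. The groups did not overlap, and the log2 fold change was 0.35 (SE 0.10, adjusted p = 0.0343). That call was kept in 8 of 16 alternative analyses, whose adjusted p ran from 0.0038 to 0.108, and it was lost without GSK101 replicate 1 (0.108) or 2 (0.106) and without Ctrl replicate 1 (0.0555), 2 (0.0842) or 3 (0.0812). Adcy8 made up 3.25 ± 0.281% of the family's summed RPKM with GSK101 and 2.21 ± 0.0523% in Ctrl. On Rnor_6.0 it lies on chromosome 7 from 105353913 to 105592804, minus strand.

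Adcy5, the other calcium-inhibited form, measured 3.68, 3.86 and 3.38 RPKM with GSK101 and 5.08, 4.21 and 4.07 RPKM in Ctrl. All GSK101 libraries were below all Ctrl libraries, yet the adjusted p was 0.0707 (log2 fold change -0.26, 95% interval -0.47 to -0.04). It was called lower in 4 of 17 alternatives, with adjusted p between 0.0177 and 0.181 over all of them. Adcy3 averaged 5.99 ± 0.286 RPKM with GSK101 and 5.28 ± 0.337 RPKM in Ctrl, again without overlap but at an adjusted p of 0.0953, and it was called higher in 1 of 17. Adcy3 shares 334 exon bases with Cenpo on the opposite strand, and whether counting used strand is not stated. Adcy4, Adcy7 and Adcy9 had overlapping groups and log2 fold changes between -0.12 and 0.06. Adcy1 and Adcy10 lay below the filter.

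The guanylyl cyclases open the cGMP arm. Soluble guanylyl cyclase, the receptor for nitric oxide, is a dimer of an alpha and a beta subunit, usually encoded by Gucy1a3 and Gucy1b3. Gucy1b3 was lower with GSK101, and so was Gucy1a3, a gene under the filter in every GSK101 library. Gucy1b3, the beta 1 subunit, measured 2.15, 1.86 and 1.94 RPKM with GSK101 and 3.44, 3.83 and 4.14 RPKM in Ctrl, on 268 to 308 and 505 to 587 reads. Every GSK101 library was well below every Ctrl library. The ratio of the means was 0.521, and the gene fell by 0.79 in log2 units (SE 0.09, adjusted p = 0.000731). It was called lower in all 17 alternatives, and its log2 fold change ranked 62 from the lowest of 12801.

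Gucy1a3, the alpha 1 subunit, measured 0.308, 0.289 and 0.273 RPKM with GSK101 and 0.506, 0.649 and 0.592 RPKM in Ctrl, on 54 to 63 and 106 to 131 reads. It passed the filter only through the Ctrl libraries, where it was high, so its groups could not overlap and its call is given as a description. The ratio of the means was 0.498, and the fall was 0.45 in log2 units (SE 0.12, adjusted p = 0.0242). The call was kept in 10 of 16 alternatives and lost, among others, without each of the 3 GSK101 libraries in turn (adjusted p 0.06 to 0.0632) and without Ctrl replicate 2 (0.0809) or 3 (0.0613), within a range of 0.000705 to 0.0809 over the alternatives. The 2 genes are neighbours on the minus strand of chromosome 2 in Rnor_6.0, Gucy1b3 from 180976939 to 181026024 and Gucy1a3 from 181045703 to 181102918, with 19678 bases between them.

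Summed over its 4 subunit genes, soluble guanylyl cyclase stood at 2.39 ± 0.221 RPKM with GSK101 and 4.54 ± 0.388 RPKM in Ctrl, a ratio of 0.526. Gucy1b3 made up 83.1 ± 1.26% of that sum with GSK101 and 83.8 ± 0.843% in Ctrl, a difference smaller than the spread between libraries. The smooth muscle markers Acta2 (2734 ± 121 RPKM with GSK101, 4946 ± 105 RPKM in Ctrl) and Myh11 (255 ± 13.4 RPKM with GSK101, 396 ± 8.73 RPKM in Ctrl) were lower in the same libraries, as were Tagln and Cnn1, whereas Des and Smtn were not called (log2 fold changes 0.26 and 0.03). The markers' part in the fall of the cyclase was not tested, and in bulk samples fewer cells of a type and less RNA per cell cannot be told apart. Gucy2c, a receptor guanylyl cyclase for guanylin peptides, reached at most 66 reads in a library, and Gucy1a2, Gucy1b2, Gucy2e and Gucy2g had fewer. All 5 lay below the RPKM filter.

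Promoter windows of the neighbouring cyclase genes are printed because the 2 genes lie side by side and encode the subunits of 1 enzyme. Each runs from 250 bases before to 50 bases after 1 annotated start in RefSeq on GRCr8, and that start was not compared with the gene models of the deposited table. Gucy1b3 is listed there as Gucy1b1 (chr2:169696938-169697237, minus strand) and Gucy1a3 as Gucy1a1 (chr2:169779574-169779873, minus strand).
Gucy1b3: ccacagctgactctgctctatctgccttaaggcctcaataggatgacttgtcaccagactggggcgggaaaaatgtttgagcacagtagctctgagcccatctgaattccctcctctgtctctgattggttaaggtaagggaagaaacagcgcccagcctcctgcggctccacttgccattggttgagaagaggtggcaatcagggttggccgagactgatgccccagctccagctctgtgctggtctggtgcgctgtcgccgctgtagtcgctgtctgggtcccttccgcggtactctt
Gucy1a3: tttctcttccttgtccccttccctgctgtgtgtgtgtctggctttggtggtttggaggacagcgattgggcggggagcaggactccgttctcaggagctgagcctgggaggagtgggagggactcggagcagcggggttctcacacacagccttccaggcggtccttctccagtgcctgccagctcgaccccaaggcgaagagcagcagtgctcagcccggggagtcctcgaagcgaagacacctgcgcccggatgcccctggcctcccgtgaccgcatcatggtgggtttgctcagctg
Both are written 5′ to 3′ along the gene, and capitals would mark a match to 1 of 4 motifs on either strand: the full cAMP response element TGACGTCA, its half-site TGACG (which the full element contains), the AP-1 site TGANTCA, and the CArG box. Neither window held any of them, which says only that these letters are not in these windows.

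Phosphodiesterases close both arms, and this family held the largest increase among the tested members, Pde4b on the log2(RPKM + 0.5) scale and Pde7b by the ratio of the means. Of the 12 tested, 5 were higher and 0 lower, beside 20.1% and 11.9% of all tested genes, with a median log2 fold change of 0.22. Pde7b, 1 of the 5, passed the filter only through the GSK101 libraries. After rescaling to TPM 7 were higher, and 4 under either of the other scalings, with 0 lower each time. Without Pde6d, a prenyl-binding protein that does not hydrolyse cyclic nucleotides, the family summed to 47.5, 46.1 and 42.8 RPKM with GSK101 and 35.2, 34.3 and 34.2 RPKM in Ctrl, a ratio of 1.32 between the means. The 5 that rose were Pde4b and Pde4d of the cAMP-specific PDE4 enzymes, Pde7b, also specific for cAMP, and both PDE3 enzymes, which bind both nucleotides and degrade cAMP more slowly when cGMP is present.

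**Figure D2:**
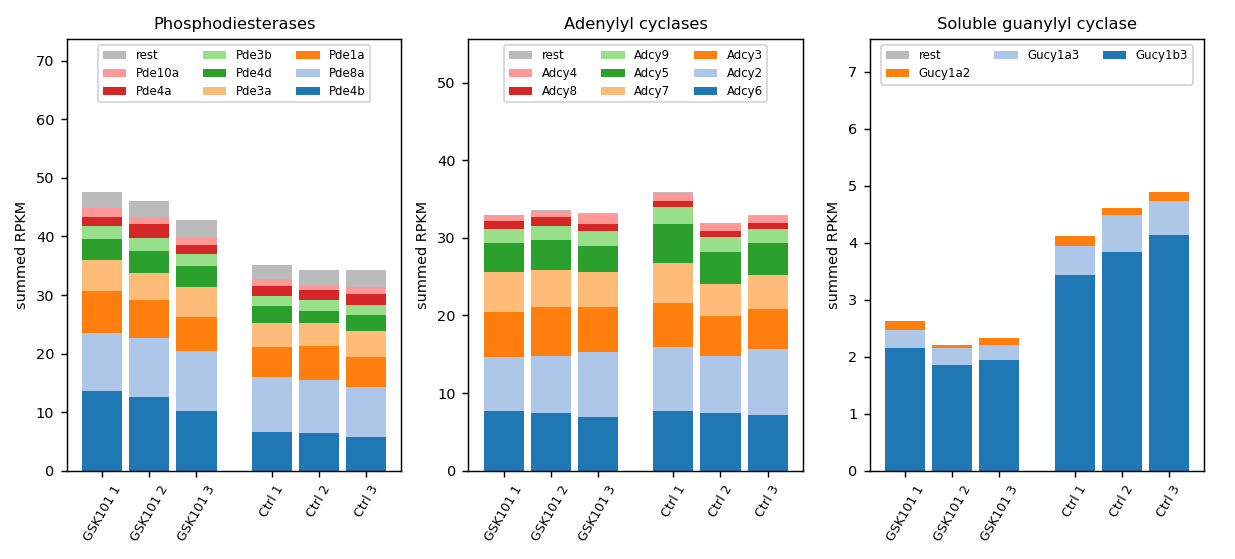
Summed RPKM of each library (GSK101 1 to 3, then Ctrl 1 to 3), stacked by gene, for the phosphodiesterases without Pde6d, the adenylyl cyclases and soluble guanylyl cyclase; each panel has its own scale. The phosphodiesterase stacks stand higher with GSK101, with the largest difference in Pde4b at the base, the adenylyl cyclase stacks are level, and the soluble guanylyl cyclase stacks are lower with GSK101.

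Pde4b measured 13.6, 12.5 and 10.2 RPKM with GSK101 and 6.63, 6.44 and 5.75 RPKM in Ctrl, on 1451 to 1998 and 837 to 999 reads. The lowest GSK101 library was well above the highest Ctrl library. The ratio of the means was 1.93 and the log2 fold change was 0.89 (95% interval 0.65 to 1.13, adjusted p = 0.000872), rank 165 from the highest of all tested genes. The call held in all 17 alternatives, with log2 fold changes between 0.80 and 1.002. Pde4b accounted for 26.6 ± 2.43% of the summed phosphodiesterase RPKM with GSK101 and 18.2 ± 1.16% in Ctrl, and for 68.6 ± 3.56% and 58.8 ± 3.01% of the 4 PDE4 genes. In Ctrl the most abundant enzyme was instead Pde8a, at 25.9 ± 0.816% of the sum, which made up 22.2 ± 1.52% with GSK101. Pde4b lies on chromosome 5 of Rnor_6.0 from 121952977 to 122136814, plus strand, and 559 of its exon bases (17.0%) are shared with the unnamed gene AABR07049466.1 on the same strand.

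The promoter window of Pde4b in RefSeq (GRCr8, chr5:122222323-122222622, plus strand) is printed because Pde4b had the largest log2 fold change at the pseudocount of 0.5.
Pde4b: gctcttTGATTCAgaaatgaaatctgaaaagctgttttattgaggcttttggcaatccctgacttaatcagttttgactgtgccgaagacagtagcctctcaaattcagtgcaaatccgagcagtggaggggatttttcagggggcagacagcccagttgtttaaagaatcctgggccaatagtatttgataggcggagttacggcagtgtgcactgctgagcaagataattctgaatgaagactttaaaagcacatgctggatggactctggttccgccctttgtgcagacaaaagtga
The capitals mark an AP-1 match, TGANTCA, that begins 244 bases upstream of the start site. Of 45 members with a window, Pde4b was the 1 that held this motif, which is found in 7.33% of all 33469 windows of this length. PDE4B has several promoters in mammals, and this window covers 1 of them.

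Pde4d, also a PDE4 enzyme, measured 3.55, 3.78 and 3.58 RPKM with GSK101 and 2.89, 2.13 and 2.67 RPKM in Ctrl. The groups did not overlap, and the log2 fold change was 0.44 (SE 0.10, adjusted p = 0.0136), kept in all 17 alternatives. Pde4a, of the same group, measured 1.53, 2.40 and 1.54 RPKM with GSK101 and 1.78, 1.78 and 1.82 RPKM in Ctrl, with overlapping groups and a 95% interval of -0.33 to 0.33. Whether the PDE4 genes differed from each other in their response was not tested. Their sum was 17.6 ± 1.92 RPKM with GSK101 and 10.7 ± 0.584 RPKM in Ctrl.

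Pde7b was low in both groups, at 0.576, 0.517 and 0.583 RPKM with GSK101 and 0.244, 0.228 and 0.101 RPKM in Ctrl, on 42 to 46 and 8 to 20 reads. It had the largest ratio of the means among the tested members, 2.92, but it passed the filter only through the GSK101 libraries, where it was high. Its groups thus could not overlap, and its call is given as a description. Its log2 fold change was 0.62 (SE 0.14, limma adjusted p = 0.0120), with a call in the 16 alternatives that tested it. Pde7b and Gucy1a3 were the only 2 tested members whose means differed at least 2-fold.

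Pde3b measured 2.22, 2.22 and 2.19 RPKM with GSK101 and 1.70, 1.73 and 1.70 RPKM in Ctrl. The libraries of each group lay close together and the groups did not overlap. The log2 fold change was 0.29 (SE 0.07, adjusted p = 0.0180), and the call was lost without GSK101 replicate 1 (0.0606) or replicate 2 (0.0588), within 0.00329 to 0.0606 over 17 alternatives. Pde3a, known from platelets and smooth muscle, measured 5.27, 4.64 and 5.02 RPKM with GSK101 and 4.03, 3.94 and 4.49 RPKM in Ctrl. Its groups came close to each other, and its log2 fold change of 0.24 (SE 0.08, adjusted p = 0.0457) was called in 7 of 17 alternatives, with adjusted p from 0.0176 to 0.147. Leaving out any 1 library other than Ctrl replicate 3 ended the call, at 0.146, 0.0508 and 0.106 for GSK101 replicates 1 to 3 and 0.108 and 0.126 for Ctrl replicates 1 and 2.

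Pde1a and Pde8a stopped just short of the threshold. Pde1a, a calcium- and calmodulin-activated enzyme for both nucleotides, measured 7.32, 6.43 and 5.93 RPKM with GSK101 and 5.27, 5.79 and 5.12 RPKM in Ctrl (log2 fold change 0.26, adjusted p = 0.0526), and was called higher in 5 of 17 alternatives, among them without GSK101 replicate 3 (0.0345), within 0.0284 to 0.157 over all. Pde8a, which has a high affinity for cAMP, measured 9.82, 10.2 and 10.1 RPKM with GSK101 and 9.30, 9.05 and 8.55 RPKM in Ctrl (0.16, adjusted p = 0.0541), and was called in 2 of 17. For both, all GSK101 libraries lay above all Ctrl libraries. Pde6d averaged 17.2 ± 0.596 RPKM with GSK101 and 18.1 ± 0.425 RPKM in Ctrl (adjusted p = 0.337). Pde5a, the cGMP-specific enzyme, averaged 0.693 RPKM in both groups, with a 95% interval of -0.29 to 0.29 for its log2 fold change. Pde7a and Pde10a had overlapping groups and adjusted p of 0.596 and 0.260.

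Of the 8 phosphodiesterases below the filter, 2 separated the groups, both downwards. They were the only 2 to do so among all 18 members below the filter. The share among all genes below the filter was not counted, so no result is drawn from these 2. Pde1c, another calcium- and calmodulin-activated enzyme, had 25 to 34 reads with GSK101 and 42 to 60 reads in Ctrl. Pde2a, an enzyme that cGMP activates, had 12 to 14 reads with GSK101 and 16 to 52 reads in Ctrl. They are given as counts, with no test. Pde1b, Pde4c, Pde6c, Pde8b, Pde9a and Pde11a had at most 13 reads in a library.

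Protein kinase A is the main reader of cAMP. Its catalytic subunits did not pass the threshold. Prkacb measured 29.2, 28.7 and 28.8 RPKM with GSK101 and 27.2, 21.8 and 26.1 RPKM in Ctrl (log2 fold change 0.21, adjusted p = 0.0797), with no overlap and a call in 3 of 17 alternatives (adjusted p 0.039 to 0.205), among them without Ctrl replicate 1 (0.0400). Prkaca measured 12.1, 12.3 and 10.6 RPKM with GSK101 and 11.7, 11.6 and 11.4 RPKM in Ctrl, with overlapping groups and a 95% interval of -0.14 to 0.16.

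Among the regulatory subunits, Prkar2a was higher. It encodes the type II alpha subunit, which most anchoring proteins bind. It measured 17.4, 18.0 and 18.1 RPKM with GSK101 and 13.4, 11.4 and 11.95 RPKM in Ctrl. The groups were far apart relative to their spread, at 0.52 on the log2 scale (SE 0.06; limma adjusted p = 0.00100), and the call held in all 17 alternatives. The gene lies on chromosome 8 of Rnor_6.0 from 117486083 to 117546370, plus strand.

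Prkar1a, the type I alpha subunit, was by far the most abundant of the kinase's genes. It measured 286, 282 and 276 RPKM with GSK101 and 272, 253 and 256 RPKM in Ctrl. The groups were separate by a narrow margin, and the adjusted p was 0.0809 (log2 fold change 0.11), with a call in 2 of 17 alternatives, one of them without Ctrl replicate 1 (0.0359; 0.0198 to 0.234 over all). Prkar1a made up 91.8 ± 0.419% of regulatory subunit RPKM with GSK101 and 93.1 ± 0.160% in Ctrl, against 5.81 ± 0.188% and 4.37 ± 0.185% for Prkar2a. Prkar2b and Prkar1b had overlapping groups and log2 fold changes of 0.00 and -0.05. Summed regulatory over summed catalytic RPKM was 7.51, 7.50 and 7.66 with GSK101 and 7.53, 8.14 and 7.33 in Ctrl, which overlap. Prkg2, the membrane-bound cGMP-dependent kinase, measured 0.207, 0.271 and 0.280 RPKM with GSK101 and 0.168, 0.150 and 0.209 RPKM in Ctrl, below the filter and with overlapping groups.

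The anchoring proteins hold protein kinase A at given places in the cell. Of 14 tested, 7 were higher and 1 lower, beside 20.1% and 11.9% of all tested genes, with a median log2 fold change of 0.11. The number higher was 7 after rescaling to TPM, 4 with median-ratio scaling and 5 with quantile normalization, with 1 lower each time. The 7 that rose reside, as background, in quite different places: Akap8 in the nucleus, Akap9 at the centrosome and Golgi, Akap11 on vesicles and microtubules, Akap1 on the outer mitochondrial membrane, and Akap2, Akap12 and Akap13 at the cell cortex and cytoskeleton.

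Akap11, which also binds glycogen synthase kinase 3 and type I regulatory subunits, measured 8.25, 8.199 and 8.10 RPKM with GSK101 and 4.9998, 6.08 and 6.23 RPKM in Ctrl. All GSK101 values were above all Ctrl values, at 0.48 on the log2 scale (SE 0.08; limma adjusted p = 0.00426). Akap9, a very long scaffold, measured 10.9, 11.6 and 12.1 RPKM with GSK101 and 7.38, 7.89 and 9.56 RPKM in Ctrl (log2 fold change 0.46, adjusted p = 0.00773). Akap8 measured 24.2, 24.5 and 27.1 RPKM with GSK101 and 18.8, 20.46 and 19.2 RPKM in Ctrl (0.36, adjusted p = 0.00323). The Akap8 model shares 1098 exon bases with Akap8l, 31.4% of its own length and 52.6% of that of Akap8l, so the authors' counting could have split or dropped reads between the 2. Akap8l averaged 22.9 ± 1.91 RPKM with GSK101 and 23.0 ± 0.777 RPKM in Ctrl, with overlapping groups.

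The promoter window of Akap11 in RefSeq (GRCr8, chr15:60365286-60365585, minus strand) is printed because it held the cAMP response element half-site TGACG 3 times.
Akap11: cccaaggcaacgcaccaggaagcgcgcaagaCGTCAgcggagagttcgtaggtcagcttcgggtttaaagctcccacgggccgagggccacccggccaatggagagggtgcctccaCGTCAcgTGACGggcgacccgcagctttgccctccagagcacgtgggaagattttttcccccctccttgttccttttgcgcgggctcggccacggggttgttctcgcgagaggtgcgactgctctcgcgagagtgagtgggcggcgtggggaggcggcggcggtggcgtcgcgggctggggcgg
The capitals mark the half-sites, TGACG or its complement CGTCA, at 219, 134 and 127 bases before the start. The half-site was in 9 of 45 member windows, 20% beside 21.2% of all windows, and in 2 of 10 windows of members that were higher, 0 of 3 of those lower and 7 of 21 of those not called. The full element was in 1 of 45 member windows, that of Akap17a, beside 1.83% of all windows, and the CArG box was in 0 of 45 beside 1.64%.

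Akap12, a tumour suppressor scaffold also called gravin, was the most abundant member of all 60. It measured 331, 332 and 373 RPKM with GSK101 and 312, 287 and 288 RPKM in Ctrl, and made up 58.2 ± 1.29% of the anchoring protein sum with GSK101 and 57.5 ± 0.973% in Ctrl. Its rise was small, 0.22 in log2 units (SE 0.06, adjusted p = 0.0251), and was called in 10 of 17 alternatives, with adjusted p from 0.00469 to 0.273. Without GSK101 replicate 3, Ctrl replicate 2 or Ctrl replicate 3 it was 0.0578, 0.0830 and 0.0688. Akap2, next in abundance, measured 91.1, 85.9 and 83.6 RPKM with GSK101 and 74.3, 60.4 and 70.6 RPKM in Ctrl (log2 fold change 0.35, adjusted p = 0.0118), a call kept in all 17. Akap2 shares 530 exon bases (13.8%) with another gene model on its strand.

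Akap1 and Akap13 were called by a narrow margin. Akap1 averaged 14.1 ± 0.430 RPKM with GSK101 and 12.4 ± 0.554 RPKM in Ctrl (log2 fold change 0.18, adjusted p = 0.0318), called in 10 of 17 alternatives and not without GSK101 replicate 1 (0.106) or 2 (0.0999) or Ctrl replicate 2 (0.0946) or 3 (0.0695). Akap13, which also activates the small GTPase RhoA, measured 11.1, 10.01 and 10.2 RPKM with GSK101 and 8.66, 8.41 and 9.69 RPKM in Ctrl (0.22, adjusted p = 0.0491). Its call was kept in 6 of 17 and, of the analyses that left out 1 library, only without Ctrl replicate 3, the others giving 0.0723 to 0.158. For both genes the GSK101 libraries lay above the Ctrl libraries.

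Akap7 was the one anchoring protein that fell. Its short forms sit at the plasma membrane and in heart muscle a longer one binds phospholamban. It measured 14.5, 13.4 and 16.6 RPKM with GSK101 and 17.6, 20.6 and 18.9 RPKM in Ctrl. The groups did not overlap, and the fall was 0.35 in log2 units (SE 0.09, adjusted p = 0.0188). The call was lost without GSK101 replicate 1 (0.0595), GSK101 replicate 2 (0.0583) or Ctrl replicate 2 (0.0624), within 0.00424 to 0.0624 over 17 alternatives. Akap17a, next in abundance after Akap2, averaged 45.5 ± 2.22 RPKM with GSK101 and 45.9 ± 1.22 RPKM in Ctrl. Akap5, Akap6, Akap10 and Akap17b also had overlapping groups, with log2 fold changes between -0.03 and 0.03, and Akap3 and Akap14 had at most 8 reads in a library.

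**Figure D3:**
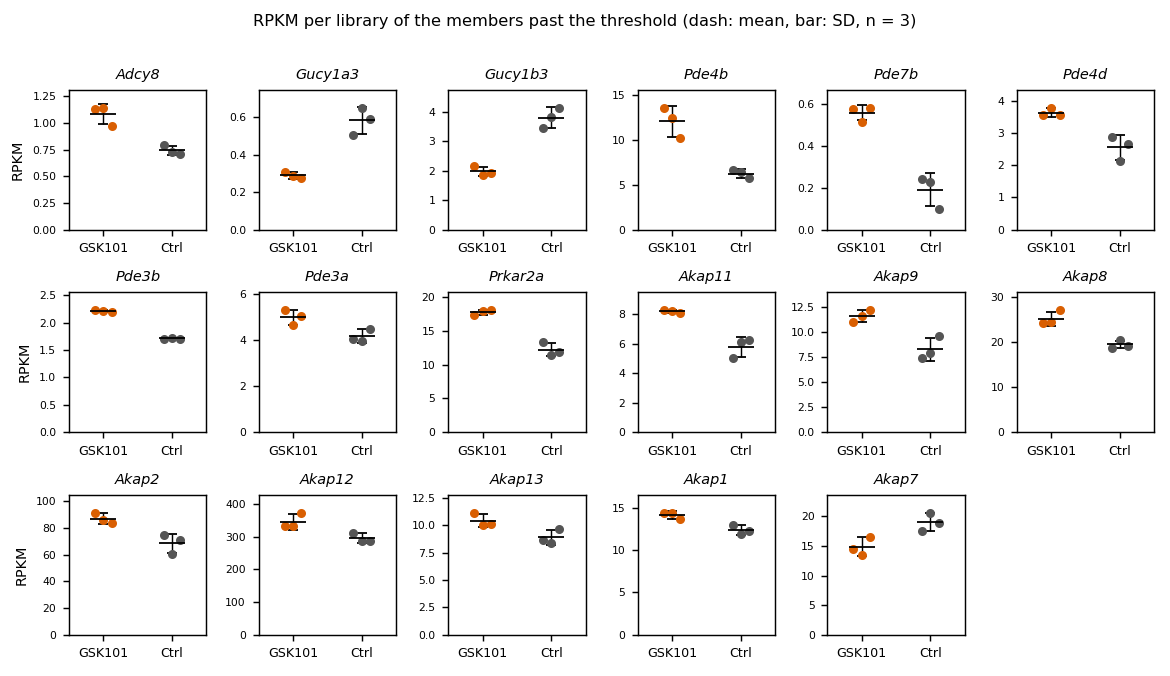
RPKM of the 17 called members in each library, GSK101 left and Ctrl right; points are the 3 libraries of each group in order of their number, the long dash is the mean and the bar is the SD, and each panel starts at 0. In every panel the groups are separate, and the gap is widest relative to the level for Pde7b, Pde4b, Gucy1a3 and Gucy1b3. Pde7b passed the filter only through the GSK101 libraries and Gucy1a3 only through the Ctrl libraries, so for both the groups could not overlap.

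Several of these genes are long, and long genes tended upward with GSK101 across the whole table. Spearman's correlation of gene length with log2 fold change was 0.18 across 12801 genes and 0.14 across the 42 members, as a description across genes that are not independent. Members that were higher had a median length of 3724.5 bases, those lower 3213 and those not called 3243, beside 2137 for all tested genes. When each library's length trend was removed, 12 members were higher and 4 lower, but only 11 of the 17 calls were shared. Adcy8, Akap1, Akap9, Akap12, Akap13 and Pde3a lost their calls, and Adcy5, Pde1a, Pde8a, Prkacb and Prkar1a gained calls. Among the anchoring proteins the number higher became 3, and their median log2 fold change 0.02, while 6 phosphodiesterases were higher and their median was 0.18. Akap9 then had a log2 fold change of 0.23 (adjusted p = 0.0931) and Akap13 of -0.01 (adjusted p = 0.898). Akap11, Akap8, Akap2, Pde4b, Pde4d, Pde7b, Prkar2a and Gucy1b3 kept their calls there and in every other alternative that tested them. For Pde7b, which passed the filter only through the GSK101 libraries, this is a description. Whether the length trend is technical was not tested.

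**Figure D4:**
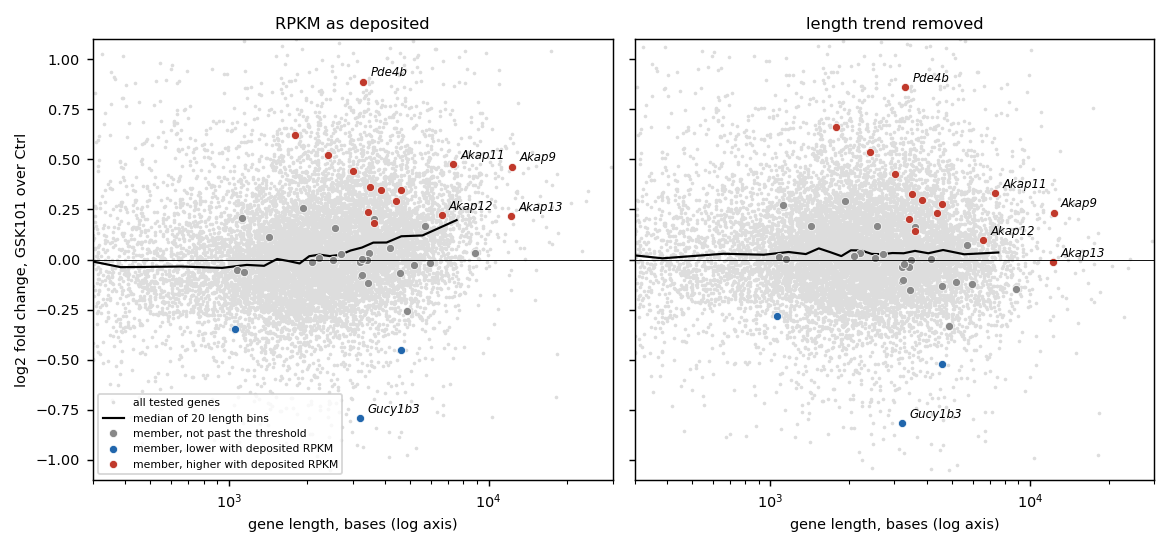
Log2 fold change, GSK101 over Ctrl, against gene length in bases on a log axis, for RPKM as deposited (left) and with each library's length trend removed (right). Small grey points are all tested genes, the line joins medians of 20 length bins, and large points are members coloured by their call with deposited RPKM; genes beyond 1.1 on the vertical axis are not drawn. The line climbs at long lengths on the left and is flat on the right, where Akap13 lies at -0.01 and Pde4b stays near the top.

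Around these genes, 84 others of the same pathways were listed, of which 76 were in the file and 46 were tested. With GSK101, 14 were higher and 9 lower, that is 50% of those tested beside 31.9% of all tested genes. The lists were chosen with earlier results of these data known, so this share is a description. It includes Areg and Pln, which passed the filter only through the group where they are high. Of 5 G protein alpha subunits tested, 2 that inhibit adenylyl cyclase were higher and the stimulatory one was lower, beside 20.1% and 11.9% of all tested genes. Gnai2, also inhibitory and by far the most abundant of the 5, was not called, and neither was Gnao1. Gnai2 averaged 447 ± 6.96 RPKM with GSK101 and 465 ± 0.671 RPKM in Ctrl (log2 fold change -0.06, limma adjusted p = 0.271). Gnai3 averaged 49.0 ± 1.43 RPKM with GSK101 and 39.1 ± 2.46 RPKM in Ctrl (log2 fold change 0.32, adjusted p = 0.0036), and Gnai1 41.7 ± 1.30 RPKM with GSK101 and 36.4 ± 1.53 RPKM in Ctrl (0.20, adjusted p = 0.0167). Gnas, the stimulatory subunit, averaged 52.6 ± 0.699 RPKM with GSK101 and 59.2 ± 2.20 RPKM in Ctrl (-0.17, adjusted p = 0.0192). The Gnas call was lost after rescaling to TPM (0.0873) and without GSK101 replicate 1 (0.0663), GSK101 replicate 3 (0.0573) or Ctrl replicate 2 (0.0624). The Gnai1 call was lost with quantile normalization (0.056) and without GSK101 replicate 2 (0.0595), GSK101 replicate 3 (0.0533) or Ctrl replicate 2 (0.0567). Of 5 receptors tested that couple to the stimulatory G protein, 1 was higher and 1 lower. Ptgir, the prostacyclin receptor, averaged 4.68 ± 0.239 RPKM with GSK101 and 3.003 ± 0.145 RPKM in Ctrl (0.56, adjusted p = 0.00103), and Vipr2, a receptor for vasoactive intestinal peptide, 0.531 ± 0.0775 RPKM with GSK101 and 0.912 ± 0.0847 RPKM in Ctrl (-0.45, adjusted p = 0.0198). The Vipr2 call was lost without GSK101 replicate 2 (0.0652), Ctrl replicate 1 (0.0509) or Ctrl replicate 3 (0.0611).

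Readers of cAMP other than protein kinase A were led by Bves and Popdc3, of the Popeye family of cAMP-binding membrane proteins best known from muscle. Both fell. Popdc3 averaged 7.98 ± 0.687 RPKM with GSK101 and 11.8 ± 0.617 RPKM in Ctrl (log2 fold change -0.54, adjusted p = 0.00155), and Bves 6.41 ± 0.509 RPKM with GSK101 and 9.24 ± 0.479 RPKM in Ctrl (-0.50, adjusted p = 0.00188). Pkig, an inhibitor of protein kinase A, was not called (-0.05). The skeletal muscle markers summed to 8.64 to 9.32 RPKM with GSK101 and 14.1 to 15.5 RPKM in Ctrl. Most of that sum was Acta1 (7.69 ± 0.416 RPKM with GSK101, 12.4 ± 0.846 RPKM in Ctrl). Acta1 and Myh4 were the 2 tested, and both were lower. Myod1, Myog and Ckm lay below the filter, with at most 18 reads in a library and overlapping groups. The markers' part in the fall of the Popeye genes was not tested. Of the efflux pumps that export cyclic nucleotides, Abcc5 averaged 4.88 ± 0.410 RPKM with GSK101 and 3.28 ± 0.253 RPKM in Ctrl (0.51, adjusted p = 0.0033), and Abcc4 was not called. Pde12, a mitochondrial RNA-processing enzyme that shares only the name, was the 1 of 3 tested genes of like symbol outside the rule that rose (0.34, adjusted p = 0.0219), a call lost in 6 of 17 alternatives, among them leaving out GSK101 replicate 1 (0.0531), GSK101 replicate 3 (0.0673), Ctrl replicate 1 (0.0629) or Ctrl replicate 2 (0.0577).

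On the transcription side, 2 of 8 CREB family genes and coactivators were higher and 0 lower, so 25% were called, beside 31.9% of all tested genes. Creb1 averaged 6.70 ± 0.770 RPKM with GSK101 and 4.87 ± 0.667 RPKM in Ctrl (log2 fold change 0.43, adjusted p = 0.0226), and Atf1 19.8 ± 0.701 RPKM with GSK101 and 17.5 ± 0.552 RPKM in Ctrl (0.17, adjusted p = 0.0281). Creb1 lost its call without the filter on low values (0.06), GSK101 replicate 1 (0.0743), GSK101 replicate 2 (0.0552) or Ctrl replicate 2 (0.0565). Atf1 lost its call in 6 of 17 alternatives, among them median-ratio scaling (0.0666) and quantile normalization (0.0653). The Atf1 call was also lost without GSK101 replicate 1 (0.0949), GSK101 replicate 3 (0.0855), Ctrl replicate 2 (0.0841) or Ctrl replicate 3 (0.0636). Among 12 tested genes known as CREB targets in other settings, 6 were higher and 1 lower, beside 20.1% and 11.9% of all tested genes. Areg, 1 of the 6, passed the filter only through the GSK101 libraries, where it is high. The nuclear receptor Nr4a1 measured 5.90, 5.51 and 3.97 RPKM with GSK101 and 2.41, 2.32 and 1.71 RPKM in Ctrl (1.08, adjusted p = 0.00202), and Id1, an inhibitor of bHLH factors, 9.05, 7.44 and 8.44 RPKM with GSK101 and 5.30, 3.70 and 4.44 RPKM in Ctrl (0.83, adjusted p = 0.00212). Fos, an AP-1 subunit, rose by 0.91 (adjusted p = 0.00239), and Bdnf, a neurotrophin, had 1.27 ± 0.0682 RPKM with GSK101 and 2.00 ± 0.0406 RPKM in Ctrl (-0.50, adjusted p = 0.00327), the 1 called gene of the list that was lower. Most of these genes also respond to other pathways, and Fos is named in the title of the series, so their count is not independent evidence of direction.

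Around the cGMP arm, both tested genes of the nitric oxide and natriuretic peptide list fell, beside 11.9% of all tested genes. Both are natriuretic peptide receptors, and no nitric oxide synthase gene was tested. Nos1 and Nos3 lay below the filter, with at most 8 reads in a library, and Nos2 was not in the file. Npr1, Nppa, Nppb and Nppc also lay below the filter. Npr3, the clearance receptor, measured 15.2, 16.2 and 14.9 RPKM with GSK101 and 22.3, 19.97 and 25.5 RPKM in Ctrl (log2 fold change -0.53, adjusted p = 0.00323), and Npr2, the receptor cyclase for C-type natriuretic peptide, averaged 7.94 ± 0.592 RPKM with GSK101 and 9.34 ± 0.160 RPKM in Ctrl (-0.22, adjusted p = 0.0311). The Npr2 call was lost in 7 of 17 alternatives, with adjusted p up to 0.0816, including all that left out 1 library except GSK101 replicate 1 (0.0501 to 0.0778). Of 5 tested partners and substrates of cGMP-dependent kinase, 1 was higher and 2 were lower, Pln among them. Pln, the calcium pump inhibitor phospholamban, measured 0.239, 0.372 and 0.453 RPKM with GSK101 and 1.11, 1.17 and 1.43 RPKM in Ctrl (-1.02, adjusted p = 0.00154). Pln passed the filter on low values only through the Ctrl libraries, where it is high, so its groups could not overlap and its call is given as a description. Itpr1, a calcium release channel, averaged 14.4 ± 0.497 RPKM with GSK101 and 19.1 ± 1.17 RPKM in Ctrl (-0.39, adjusted p = 0.00224), and Ppp1r12a, the myosin phosphatase targeting subunit, 43.5 ± 0.942 RPKM with GSK101 and 36.5 ± 1.23 RPKM in Ctrl (0.25, adjusted p = 0.00401). The 4 smooth muscle markers that fell did so in the same libraries, and their part was not tested. Of the cyclic nucleotide gated channels, Hcn2 alone was tested and was not called (adjusted p = 0.838).

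**Figure D5:**
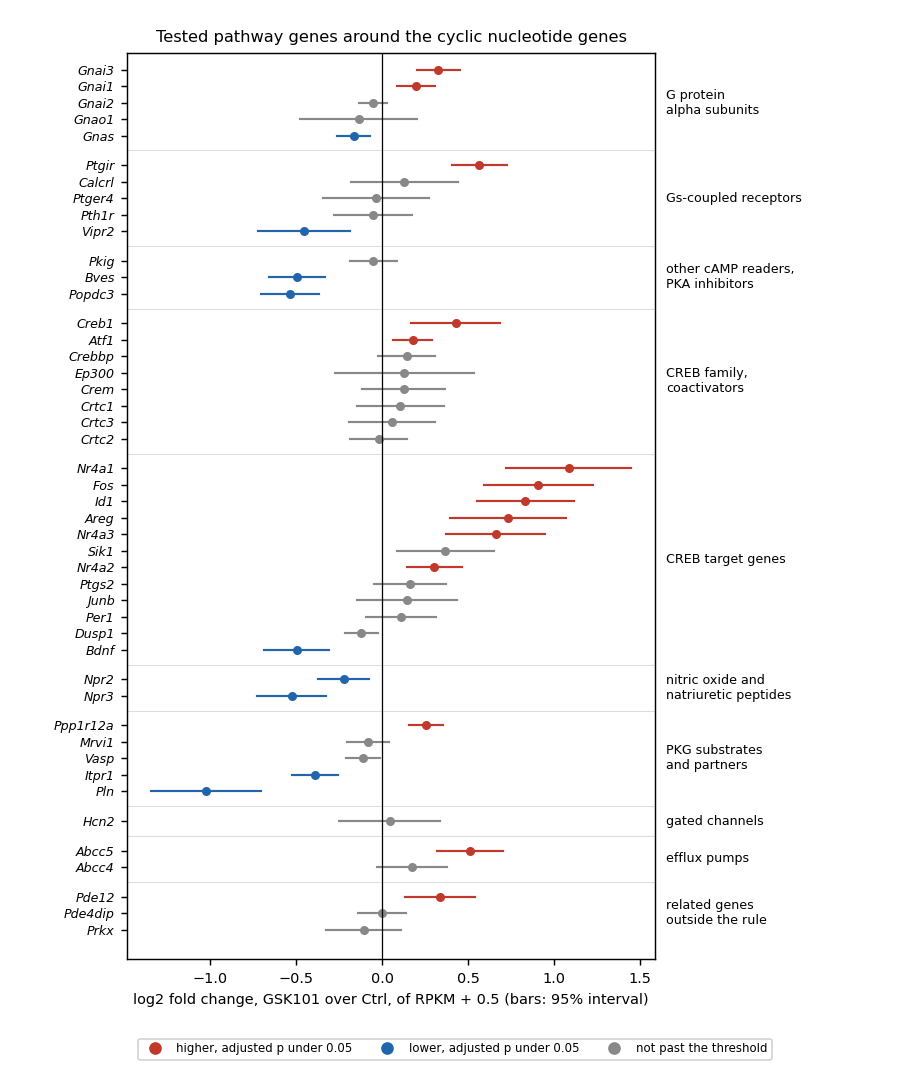
Log2 fold change of RPKM + 0.5, GSK101 over Ctrl, of the 46 tested pathway genes outside the family rule, grouped by list. Points are limma estimates from 3 libraries per group and bars are 95% intervals; red marks higher, blue lower and grey no call. Nr4a1 lies furthest right at 1.08 and Pln, which passed the filter only through the Ctrl libraries, furthest left at -1.02, and the CREB targets spread on both sides of 0.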

How the data were processed

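The authors deposited 1 table of RPKM values for 20675 rat genes, with coordinates on Rnor_6.0. The tools listed, per the submitters' processing notes and without their roles, are STAR 2.5.3a, Trimmomatic 0.36, edgeR 3.12.1, Subread 1.5.1 and featureCounts. Not stated is whether molecular identifiers were collapsed, strand was used or multiply mapped reads were kept. RPKM times length gave whole multiples of a fixed step for 100% of values, within 0.01 of a read, and that step was taken as 1 read. Even read numbers made up 71.3% to 74.7% of genes with 1 to 10 reads, so a fragment may count as 2 reads. Read numbers bear on counting error only.

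Values of log2(RPKM + 0.5) were tested between the groups with limma (version 3.58.1, R version 4.3.3), using a mean-variance trend and Benjamini-Hochberg adjustment over 12801 genes, after a test on simulated data. Genes of the file were matched to lists by symbol. The members and lists were chosen with earlier results of these data known. Text names every called member, the 3 most abundant of each family, members whose call changed under an alternative, and up to 3 of each pathway list with the smallest adjusted p. The other members named account for the whole set and were chosen after their values were seen. Promoter windows come from RefSeq on GRCr8, which matched 45 of 60 members, 3 of them by synonym. The alternatives were 2 pseudocounts, 2 filters, 3 scalings, removal of the length trend (loess, span 0.3), limma without the trend, limma-voom on the recovered reads, a replicate block and leaving out each library.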

Additional observations from a re-analysis of the deposited data

How the results depend on the processing

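Of the 17 called members, 8 kept their call in every alternative that tested them (Pde4b, Pde4d, Pde7b, Prkar2a, Akap2, Akap8, Akap11 and Gucy1b3; Pde7b passed the filter only through the GSK101 libraries and was not tested at the stricter one) and 9 lost it in at least 1. Members called higher numbered 9 to 13 and members called lower 1 to 3 when 1 library was left out, beside 14 and 3 with all 6; the 9 and 1 came from leaving out GSK101 replicate 1, GSK101 replicate 2 or Ctrl replicate 2. The 46 tested pathway genes gave 17 to 21 calls in those analyses and 20 to 25 in the others, beside 23. Akap13 changed sign when the gene length trend was removed (log2 fold change -0.0128, adjusted p = 0.898), which takes that trend out by construction. Of members with no call, 6 were called in some alternative: Pde1a, Pde8a, Adcy5, Adcy3, Prkacb and Prkar1a.

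Same-numbered libraries did not deviate together (correlations of 0.05, -0.06 and 0.05 over genes, beside -0.15 to 0.11 for other pairs), so the numbers were not taken to pair the samples. With the replicate number as a block, 11 members were higher and 2 lower, and Adcy8, Akap13, Gucy1a3 and Pde3a were not called. limma-voom on the recovered reads called 17 higher and 4 lower. Pde7b had a larger log2 fold change than Pde4b at a pseudocount of 0.1 (1.22) and with limma-voom (1.61). Of the 18 members below the filter, 9 had at most 10 reads in every library.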
